A study of Arabidopsis thaliana with 18 samples.

Results

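A set of 201 Arabidopsis thaliana genes had a much lower transcript level in the histone H3.3 knock-down line h3.3kd than in the wild type, whether seedlings were kept at 21 °C or at 27 °C. The genes were selected on the measured difference itself: a gene entered the set when the log2 of its mean TPM + 1 was lower in h3.3kd than in the wild type Col by at least 1 at each temperature. Its Col mean also had to reach 5 TPM at each temperature, and the H3.3 genes HTR4, HTR5 and HTR8 were left out. TPM is a transcript level scaled to gene length and to a fixed sum per library. Of 27655 genes in the table, 27445 were nuclear, and 14932 of these reached the Col level of the rule, so that the set was 1.35% of them. The mirror rule, higher by at least 1 in h3.3kd at both temperatures, held for 43 genes. Since the difference between h3.3kd and Col chose the genes, their values in that comparison are given as a description, without a test.

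RNA had been sequenced from whole seedlings, 7 days old, raised in short days. The 6 groups were Col, h3.3kd (labelled h3.3kd-1) and elf7-3, each at 21 °C and at 27 °C, with 3 libraries per group and 18 in all. The mutant elf7-3 affects ELF7, which belongs to the Paf1 complex, and 27 °C is the moderate warmth at which Arabidopsis elongates its stems and leaf stalks. The labels do not say how h3.3kd was made, whether it is a single line, or whether replicates were grown apart. A p-value here thus reflects the spread among libraries within groups, pooled over the 6 groups of 3, and no more. Part of that spread may be technical.

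Histone H3.3 is the form of histone H3 that is placed on DNA outside replication, and in plants it lies mostly over the bodies and ends of transcribed genes. The Paf1 complex travels with RNA polymerase II and helps it through chromatin. Genes of cell wall remodelling, transport and defence, all of them in the set, are commonly regulated in seedlings by light, sugar status, touch and pathogens.

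The stretch just upstream of a gene holds the promoter, and 5 such windows are shown because their genes head the set: they are the genes with the largest mean difference among those whose 250 upstream bases lie outside other annotated genes. Each window is the 150 bases before the annotated gene start, written 5′ to 3′ on the gene's strand, from the RefSeq assembly TAIR10.1. AZI1 lies at chr4:7401952-7402101 (minus strand), M17 at chr2:17206302-17206451 (plus strand), AT3G44970 at chr3:16432136-16432285 (plus strand), AT3G16670 at chr3:5681230-5681379 (plus strand) and AT2G25510 at chr2:10856121-10856270 (plus strand), where the positions are those of the windows. Capitals mark, on either strand, the TATA-box TATAAA, the W-box core TTGAC, the Site II element TGGGCC and the evening element core ATATCT.
AZI1: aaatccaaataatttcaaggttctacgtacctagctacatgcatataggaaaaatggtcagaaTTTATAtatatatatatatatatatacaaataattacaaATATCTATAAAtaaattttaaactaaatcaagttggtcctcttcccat
M17: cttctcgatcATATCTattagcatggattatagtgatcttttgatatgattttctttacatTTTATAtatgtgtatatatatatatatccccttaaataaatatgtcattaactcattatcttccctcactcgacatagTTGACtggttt
AT3G44970: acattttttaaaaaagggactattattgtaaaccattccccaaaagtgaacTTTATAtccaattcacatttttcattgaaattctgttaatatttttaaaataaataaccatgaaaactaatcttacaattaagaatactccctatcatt
AT3G16670: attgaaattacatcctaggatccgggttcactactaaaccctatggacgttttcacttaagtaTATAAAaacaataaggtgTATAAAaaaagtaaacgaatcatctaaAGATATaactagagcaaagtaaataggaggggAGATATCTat
AT2G25510: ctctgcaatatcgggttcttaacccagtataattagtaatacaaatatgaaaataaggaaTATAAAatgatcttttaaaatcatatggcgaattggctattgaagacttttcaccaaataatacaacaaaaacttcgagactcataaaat
TATAAA was present in all 5 windows, ATATCT in those of AZI1, M17 and AT3G16670, and TTGAC in that of M17. TGGGCC was in none of the 5.

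Over the 250 bases upstream of all 201 genes, TATAAA occurred in 53.2%, against 46.1% of the 19920 tested nuclear genes with such a window. ATATCT was found upstream of 27.9% of the set and 22.4% of the tested genes. The Site II element TGGGCC was found upstream of 4.98% of the set and 16.3% of the tested genes, and the telo-box core AAACCC upstream of 11.4% and 16.0%. The W-box core TTGAC, which WRKY factors bind, occurred in 42.3% and 45.0%, its longer forms TTGACC in 6.97% and 12.1% and TTGACT in 17.9% and 18.7%, both of which contain the core. The G-box CACGTG was at 8.96% and 7.47%, the PBE-box CACATG at 10.9% and 11.3%, and the abscisic acid element ACGTGGC at 1.99% and 3.96%. The GCC-box GCCGCC stood at 0.995% and 1.93%, the cold element CCGAC at 7.96% and 12.8%, the auxin element TGTCTC at 8.46% and 10.8%, and TGACG at 16.4% and 19.3%. GAGAGAG was present in 5.47% and 7.23%, and the heat shock pattern GAANNTTC in 8.96% and 9.13%. Both strands were searched, and a match describes these letters and is not evidence of a bound site. The tested genes were not limited to the Col level of the rule.

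The targeted genes followed the labels. HTR8 had 354, 329 and 346 TPM in Col and 18.5, 20.7 and 17.3 TPM in h3.3kd at 21 °C, and HTR4 had 429, 428 and 423 TPM and 45.5, 44.7 and 43.8 TPM. HTR5 retained more of its transcript, at 269.6 ± 9.67 against 601 ± 10.1 TPM (SD, n = 3) at 21 °C and 265 ± 6.28 against 447 ± 22.6 TPM at 27 °C. The H3.3 genes are near copies of each other, so that reads may be split between them. ELF7 was at 9.04 ± 0.473 TPM in elf7-3 against 29.2 ± 1.72 TPM in Col at 21 °C. Low values implied between 7.44e+06 and 1.21e+07 reads per library, an approximate figure. A library had 18563 to 19225 genes at 1 TPM or more. The h3.3kd library of replicate 1 at 27 °C stood apart with 3.66% of its TPM in organelle genes, against 0.128% to 0.343% in the other 17 libraries, and without it 198 genes met the rule, 193 of them in the set. A value of 0 is only a listing, since MYC2, a widely expressed jasmonate regulator, was listed at 0 in all 18 libraries.

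Summed over the 201 genes, the level at 21 °C was 19525 ± 736 TPM in Col, 7242 ± 779 in h3.3kd and 15518 ± 1196 in elf7-3 (SD, n = 3). At 27 °C the sums were 17984 ± 890, 4502 ± 43.4 and 14809 ± 1116 TPM. The median gene of the set stood at 36.2% of its Col mean in h3.3kd at 21 °C and at 24.2% at 27 °C. The corresponding values in elf7-3 were 86.1% and 78.4%. In whole seedlings, fewer cells of a type and less RNA per cell cannot be told apart.

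The log2 differences ranged from -4.43 to -1.0005 at 21 °C with a median of -1.37, and from -5.62 to -1.02 at 27 °C with a median of -1.80. The difference was larger at 27 °C for 161 of the 201 genes, or 80.1%, and at 21 °C for 40. Over all 14932 genes at the same Col level, 55.9% had the lower difference at 27 °C. Of these genes, H3.3 genes included, 267 were lower by at least 1 in h3.3kd at 21 °C and 577 at 27 °C. Larger drops at 27 °C were thus not particular to the set. At 21 °C 35 genes of the set had a difference of at most -2 and 6 of at most -3, and at 27 °C 84 and 25 had. The Col and h3.3kd libraries did not overlap for 200 of the 201 genes at 21 °C, where 29.1% of all 20048 tested genes were lower in h3.3kd without overlap, and for 200 at 27 °C, where 34.6% were. With limma 200 genes were called lower at 21 °C, beside 20.8% of all genes, and 201 at 27 °C, beside 31.6%. These counts follow from the rule, so that they describe the set and are no test of it.

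**Figure D1:**
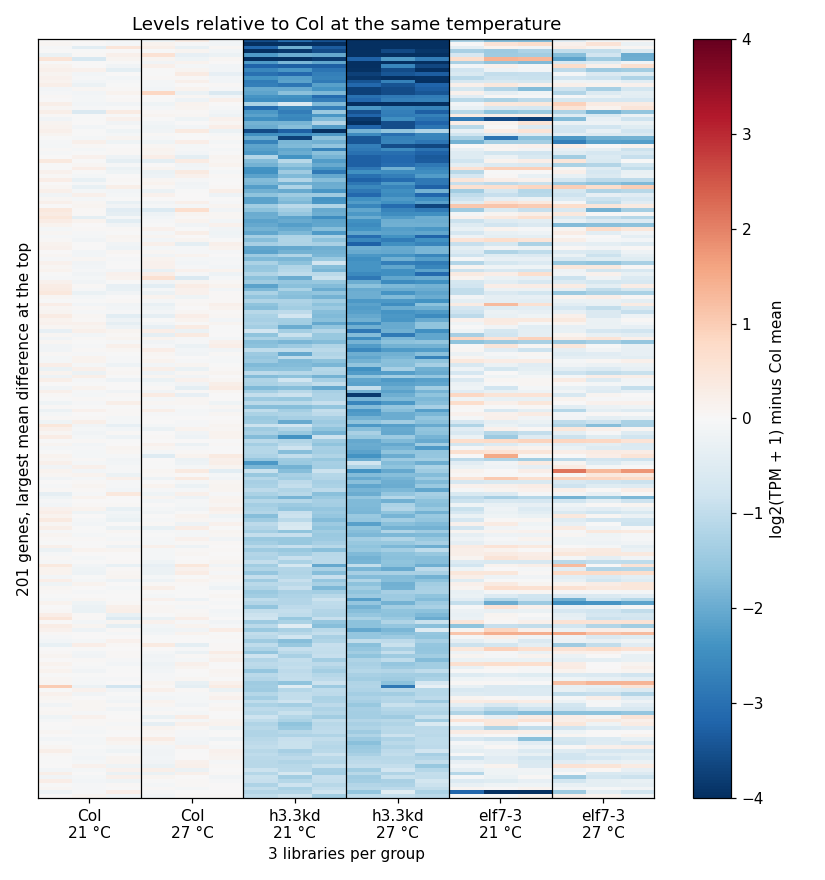
Each line is one of the 201 genes, ordered by mean difference, and each column a library; colour gives log2(TPM + 1) minus the Col mean at the same temperature, from -4 (blue) to 4 (red). The h3.3kd columns are blue throughout, deeper at 27 °C (median -1.80) than at 21 °C (median -1.37), while elf7-3 columns hold blue, white and red genes.

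**Figure D2:**
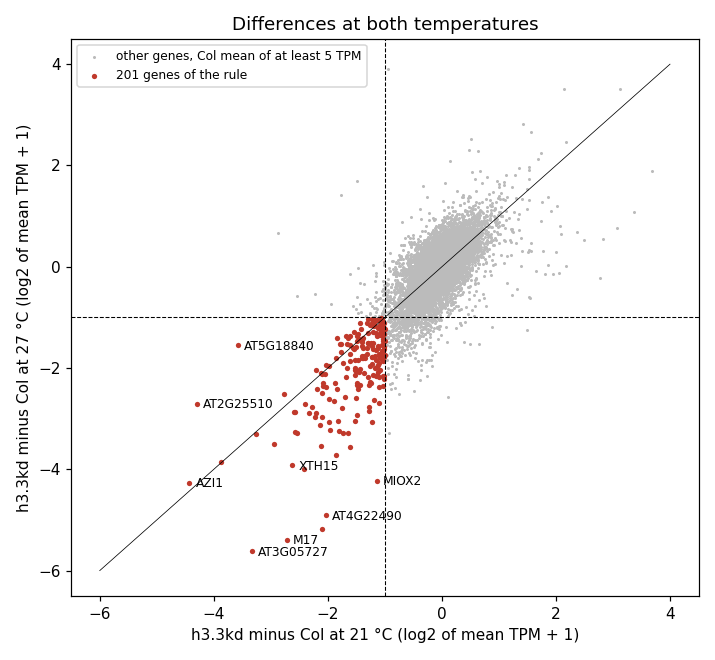
Each point is a gene with a Col mean of at least 5 TPM, placed by its log2 difference between h3.3kd and Col at 21 °C (horizontal) and at 27 °C (vertical); red points are the 201 genes, dashed lines the threshold of -1 and the solid line equal differences. Most red points, 161 of 201, lie below the solid line, MIOX2 and AT4G22490 far below it and AT2G25510 and AT5G18840 above it.

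The set has no sharp border. The genes nearest inside the threshold were AT2G16270, with differences of -1.0005 at 21 °C and -1.23 at 27 °C, AT2G28780 and AT4G04460. The nearest outside were GLTP2, with -1.21 and -0.999961, the clock gene PRR3, with -0.99993 and -1.52, and the ion channel gene CNGC10, with -0.997885 and -1.41. The 1 gene whose libraries overlapped was AT3G01572, annotated with an exon length of 114 bases. It had 12.4, 4.59 and 2.89 TPM in Col and 1.52, 3.75 and 1.40 TPM in h3.3kd at 21 °C.

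The largest mean difference belonged to AT3G05727 (chr3:1693548-1694140, plus strand), annotated as an S locus-related glycoprotein binding protein and encoded next to a defensin-like gene. It had 680.4, 682 and 627 TPM in Col, 55.7, 80.3 and 58.3 TPM in h3.3kd and 273, 201 and 199.7 TPM in elf7-3 at 21 °C. At 27 °C it had 72.4, 98.6 and 74.1 TPM in Col, 0.868, 0.884 and 0.307 TPM in h3.3kd and 59.2, 75.7 and 84.8 TPM in elf7-3. The gene was highest in Col at 21 °C, with elf7-3 between the other genotypes, while at 27 °C elf7-3 overlapped Col and all h3.3kd libraries were under 1 TPM. AZI1 (chr4:7401087-7401951, minus strand), a lipid-transfer-like protein needed for the priming of systemic defence by azelaic acid, was next. Its values at 21 °C were 63.4, 61.1 and 57.1 TPM in Col, 1.205, 1.97 and 2.40 TPM in h3.3kd and 61.5, 88.4 and 98.1 TPM in elf7-3. At 27 °C they were 24.6, 21.2 and 20.5 TPM in Col, 0, 0.404 and 0.210 TPM in h3.3kd and 25.1, 32.9 and 18.6 TPM in elf7-3. The elf7-3 libraries reached or passed the Col range at both temperatures, except replicate 3 at 27 °C, and no h3.3kd library reached 3 TPM.

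M17 (chr2:17206452-17207698, plus strand), a gene of the late embryogenesis abundant kind, had log2 differences of -2.72 at 21 °C and -5.39 at 27 °C. It had 14.8, 11.3 and 21.9 TPM in Col, 0.836, 3.25 and 0.641 TPM in h3.3kd and 11.99, 17.3 and 13.98 TPM in elf7-3 at 21 °C. In the warm it had 78.04, 54.7 and 69.8 TPM in Col, 0.206, 1.40 and 0.292 TPM in h3.3kd and 83.2, 71.7 and 69.9 TPM in elf7-3. Col and elf7-3 were several-fold higher in the warm, and h3.3kd stayed under 4 TPM at both temperatures. The cytochrome P450 gene AT3G44970 (chr3:16432286-16435124, plus strand) had 29.5, 29.6 and 29.9 TPM in Col, 0.551, 1.13 and 1.58 TPM in h3.3kd and 11.4, 10.3 and 12.1 TPM in elf7-3 at 21 °C. The warm libraries held 15.7, 17.3 and 14.7 TPM in Col, 0, 0.369 and 0.128 TPM in h3.3kd and 7.58, 7.58 and 10.1 TPM in elf7-3. All 3 genotypes were separated from each other at both temperatures, with elf7-3 between Col and h3.3kd.

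AT3G16670 (chr3:5681380-5682362, plus strand), an extensin-family protein of the Pollen Ole e 1 type, had 27.96, 34.8 and 39.04 TPM in Col, 6.18, 7.82 and 7.32 TPM in h3.3kd and 20.7, 12.1 and 12.1 TPM in elf7-3 at 21 °C. Its warm values were 57.96, 31.1 and 32.6 TPM in Col, 0.262, 0.178 and 0 TPM in h3.3kd and 11.2, 22.4 and 9.01 TPM in elf7-3. The h3.3kd level was low at 21 °C and close to 0 in the warm, and elf7-3 lay below Col at both temperatures. AT2G25510 (chr2:10856271-10857217, plus strand), whose product is uncharacterized, had 40.4, 17.5 and 30.4 TPM in Col, 0.183, 0.451 and 1.01 TPM in h3.3kd and 45.6, 75.3 and 70.8 TPM in elf7-3 at 21 °C. At 27 °C it showed 11.8, 9.58 and 11.5 TPM in Col, 0.272, 1.48 and 0.769 TPM in h3.3kd and 1.75, 3.49 and 2.10 TPM in elf7-3. Here elf7-3 was above every Col library at 21 °C and below every Col library at 27 °C, a crossing not seen in the genes described before it.

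AT4G22490 (chr4:11849653-11850436, minus strand), a lipid-transfer protein of the same broad family as AZI1, had 168, 171 and 168 TPM in Col, 34.6, 47.4 and 39.2 TPM in h3.3kd and 67.7, 54.4 and 49.5 TPM in elf7-3 at 21 °C. In the warm the values were 86.5, 105 and 96.7 TPM in Col, 1.97, 2.90 and 1.86 TPM in h3.3kd and 61.7, 66.8 and 87.6 TPM in elf7-3. The h3.3kd level was thus far lower at 27 °C than at 21 °C, whereas the elf7-3 ranges at both temperatures overlapped. The uncharacterized gene AT1G75945 (chr1:28515245-28515916, minus strand) had 30.2, 27.3 and 24.3 TPM in Col and 2.07, 1.91 and 1.90 TPM in h3.3kd at 21 °C. At 27 °C its levels were 16.96, 14.02 and 13.5 TPM in Col and 0, 1.56 and 0.271 TPM in h3.3kd. The elf7-3 means, 27.1 ± 3.04 and 22.1 ± 4.32 TPM, were close to that of Col at 21 °C and above every Col library at 27 °C. AT5G24215 (chr5:8221371-8222930, plus strand), also uncharacterized, was low even in Col, with 8.36, 7.16 and 7.81 TPM at 21 °C and 14.4, 18.7 and 11.4 TPM at 27 °C. The h3.3kd libraries held 0.111, 0 and 0.308 TPM and 0.165, 0.448 and 0.583 TPM, close to the floor.

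**Figure D3:**
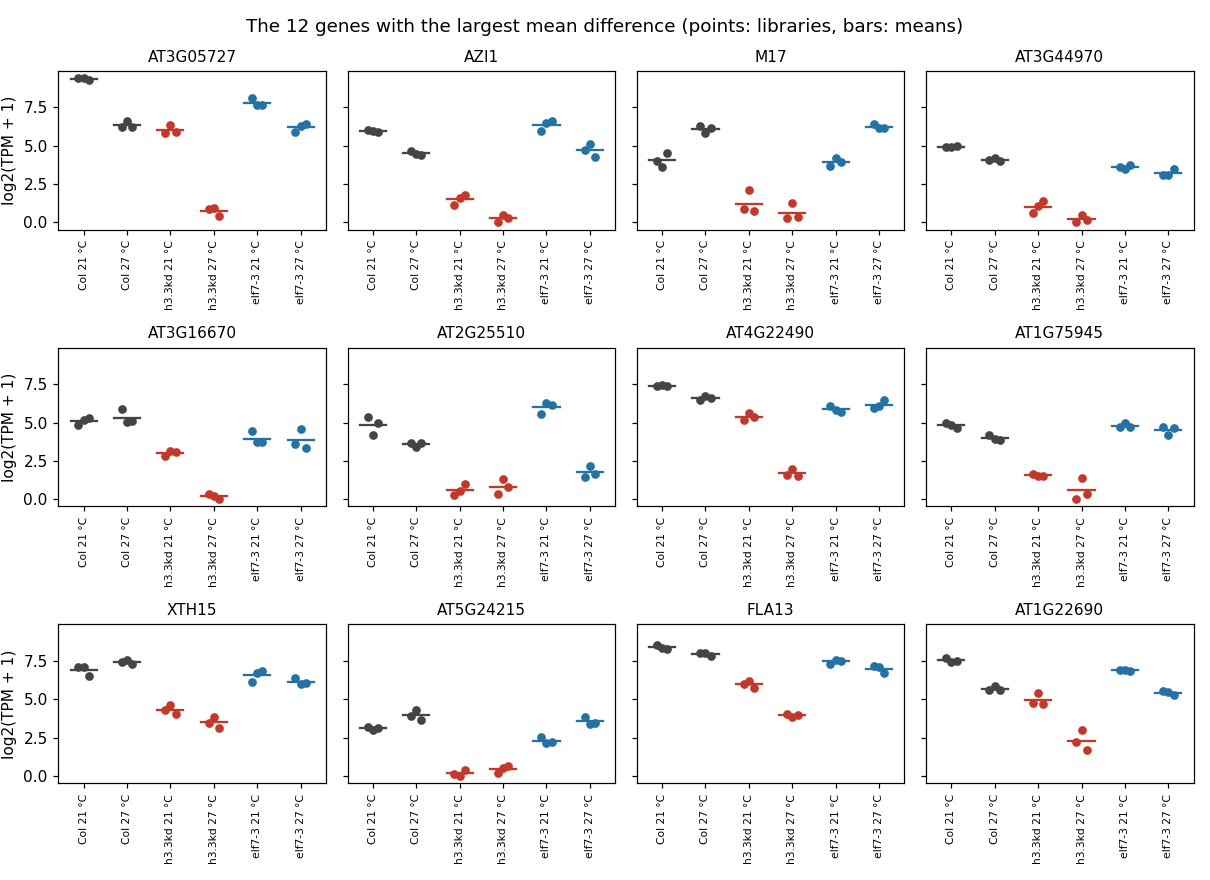
Levels, as log2(TPM + 1), of the 12 genes with the largest mean difference in each of the 18 libraries (points) with group means (bars). In each panel the red h3.3kd points lie below the grey Col points at the same temperature, and the blue elf7-3 points lie mostly at or between the Col and h3.3kd levels.

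Among cell wall genes, 5 of the set encode xyloglucan endotransglucosylase/hydrolases (XTH), enzymes that cut and rejoin the xyloglucan tethers of the wall, out of 20 XTH genes at the Col level of the rule. XTH15 (chr4:8137020-8138392, minus strand) had 139.9, 135 and 92.7 TPM in Col, 18.9, 23.3 and 15.1 TPM in h3.3kd and 69.8, 105 and 112 TPM in elf7-3 at 21 °C. At 27 °C it had 172, 187 and 159.7 TPM in Col, 10.1, 13.5 and 7.95 TPM in h3.3kd and 83.2, 61.7 and 64.7 TPM in elf7-3. The ranges of Col and elf7-3 overlapped at 21 °C and were apart at 27 °C, and h3.3kd was lowest at both. XTH24 (chr4:14819192-14820595, minus strand), the most abundant of the 5, had 531, 466 and 444 TPM in Col, 166, 215 and 133 TPM in h3.3kd and 264, 305 and 281 TPM in elf7-3 at 21 °C. In warm seedlings it had 972, 1343 and 1323 TPM in Col, 235, 219 and 269 TPM in h3.3kd and 1033, 716 and 774 TPM in elf7-3. All genotypes had more XTH24 transcript in the warm, but h3.3kd at 27 °C remained below Col at 21 °C. XTH16 differed by -1.27 at 21 °C and -2.27 at 27 °C, XTH33 by -1.01 at 21 °C and -2.16 at 27 °C, and TCH4, known as a gene induced by touch, by -1.01 at 21 °C and -1.63 at 27 °C. TCH4 and XTH33 lay close to the threshold at 21 °C. The TCH4 libraries at 21 °C read 95.5, 84.9 and 59.2 TPM in Col, 36.7, 56.98 and 23.5 TPM in h3.3kd and 24.8, 40.6 and 38.7 TPM in elf7-3, so that replicate 2 of h3.3kd came near replicate 3 of Col and elf7-3 overlapped h3.3kd.

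Structural wall proteins were represented by 9 extensin, proline-rich or hydroxyproline-rich genes of 84 at the Col level of the rule, and by 2 arabinogalactan protein genes of 30. FLA13 (chr5:17760865-17762089, plus strand), a fasciclin-like arabinogalactan protein of the cell surface, had 379, 327 and 314 TPM in Col, 64.1, 72.2 and 52.5 TPM in h3.3kd and 160.4, 187 and 183 TPM in elf7-3 at 21 °C. Its warm libraries held 257, 254 and 231 TPM in Col, 15.8, 13.1 and 14.9 TPM in h3.3kd and 145, 135 and 104 TPM in elf7-3. The 3 genotypes did not overlap at either temperature, with elf7-3 in the middle. AGP12, an arabinogalactan protein named after its values were seen, was at 357 ± 25.9 TPM in Col and 113 ± 3.45 TPM in h3.3kd at 27 °C. ELP, an extensin-like protein and one of the 6 genes with the highest Col level, had 1106, 1125 and 1145 TPM in Col and 529.7, 564 and 507 TPM in h3.3kd at 21 °C. At 27 °C ELP had 866, 883 and 948 TPM in Col and 367, 352 and 345 TPM in h3.3kd. PRP2, a proline-rich wall protein, had a difference of -1.28 at 21 °C and -2.78 at 27 °C, and EXT4, an extensin, of -1.15 at 21 °C and -2.16 at 27 °C.

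Wall loosening and pectin genes followed. Of 20 expansin genes at the Col level of the rule, 2 were in the set, EXPA16 with -1.26 at 21 °C and -1.14 at 27 °C and EXLB1 with -1.16 at 21 °C and -1.84 at 27 °C, named like GASA6 after its values were seen. Of 54 genes for pectin methylesterases, their inhibitors and pectin lyase-like proteins, 4 were in the set. Of these ATPMEPCRD had 22.4 ± 2.36 TPM in Col and 4.40 ± 0.253 TPM in h3.3kd at 21 °C, and PME5 had 79.2 ± 0.652 and 32.8 ± 3.25 TPM. Gibberellin-regulated (GASA) genes encode small cysteine-rich secreted proteins. AT1G22690 and GASA6 were 2 of 4 at that Col level. AT1G22690 (chr1:8027126-8028168, plus strand) had 206, 175 and 182 TPM in Col, 26.3, 41.96 and 25.5 TPM in h3.3kd and 119.6, 122 and 116 TPM in elf7-3 at 21 °C. With warmth the values were 47.996, 58.6 and 47.2 TPM in Col, 3.70, 7.03 and 2.27 TPM in h3.3kd and 45.5, 43.9 and 37.96 TPM in elf7-3. The 3 genotypes were apart at both temperatures, and all had less transcript at 27 °C. Of 34 peroxidase genes 3 were in the set, among them the neighbours AT5G64110, with -2.58 at 21 °C and -2.86 at 27 °C, and AT5G64120, with -1.96 at 21 °C and -3.22 at 27 °C. Whole families, the set included, had these limma calls in h3.3kd, higher and lower, at 21 °C and then at 27 °C. The 23 tested expansins had 3 and 4, then 7 and 9. For 105 pectin genes they were 20 and 26, then 22 and 37. For 57 peroxidases the calls were 11 and 15, then 8 and 27, and for 5 GASA genes 0 and 3, then 0 and 4. Of all genes 12.7% were called higher and 20.8% lower at 21 °C, and 20.2% and 31.6% at 27 °C. MIOX2, a myo-inositol oxygenase that makes glucuronic acid for wall sugars, had 236, 187 and 184 TPM in Col, 83.2, 131 and 58.6 TPM in h3.3kd and 186, 270.3 and 276 TPM in elf7-3 at 21 °C. At 27 °C MIOX2 read 84.1, 105 and 96.5 TPM in Col, 2.56, 4.73 and 5.12 TPM in h3.3kd and 181, 119 and 119 TPM in elf7-3. Its difference was -1.14 at 21 °C and -4.23 at 27 °C, and at 27 °C elf7-3 lay above Col in every library.

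Among transporter genes, 7 of the 26 UMAMIT genes at the Col level of the rule were in the set. UMAMIT proteins (Usually Multiple Amino acids Move In and out Transporters) are membrane carriers, several of which are known to export amino acids. UMAMIT20 (chr4:5238773-5241112, plus strand) had 44.7, 40.8 and 38.7 TPM in Col, 6.68, 6.75 and 7.59 TPM in h3.3kd and 23.3, 27.8 and 28.7 TPM in elf7-3 at 21 °C. In the warm it had 58.3, 56.4 and 54.6 TPM in Col, 9.02, 6.05 and 8.40 TPM in h3.3kd and 41.5, 37.8 and 37.2 TPM in elf7-3. The groups did not overlap at either temperature, and elf7-3 lay between the others. Its neighbour UMAMIT17 (chr4:5244865-5248394, plus strand) behaved otherwise in elf7-3, with 15.1, 16.2 and 13.3 TPM in Col, 5.07, 6.47 and 5.85 TPM in h3.3kd and 32.3, 33.5 and 31.3 TPM in elf7-3 at 21 °C. At 27 °C it had 23.9, 23.5 and 26.8 TPM in Col, 3.21, 2.03 and 1.03 TPM in h3.3kd and 40.7, 35.2 and 32.01 TPM in elf7-3. All elf7-3 libraries lay above all Col libraries and all h3.3kd libraries below them. UMAMIT31 differed by -2.33 at 21 °C and -2.90 at 27 °C, UMAMIT29 by -1.46 at 21 °C and -1.84 at 27 °C, UMAMIT47 by -1.32 at 21 °C and -1.72 at 27 °C, UMAMIT30 by -1.10 at 21 °C and -1.18 at 27 °C and UMAMIT45 by -1.15 at 21 °C and -1.04 at 27 °C. The family has close relatives, some side by side, and how the authors' counting treated reads that match several of them is not given in the sources used here.

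**Figure D4:**
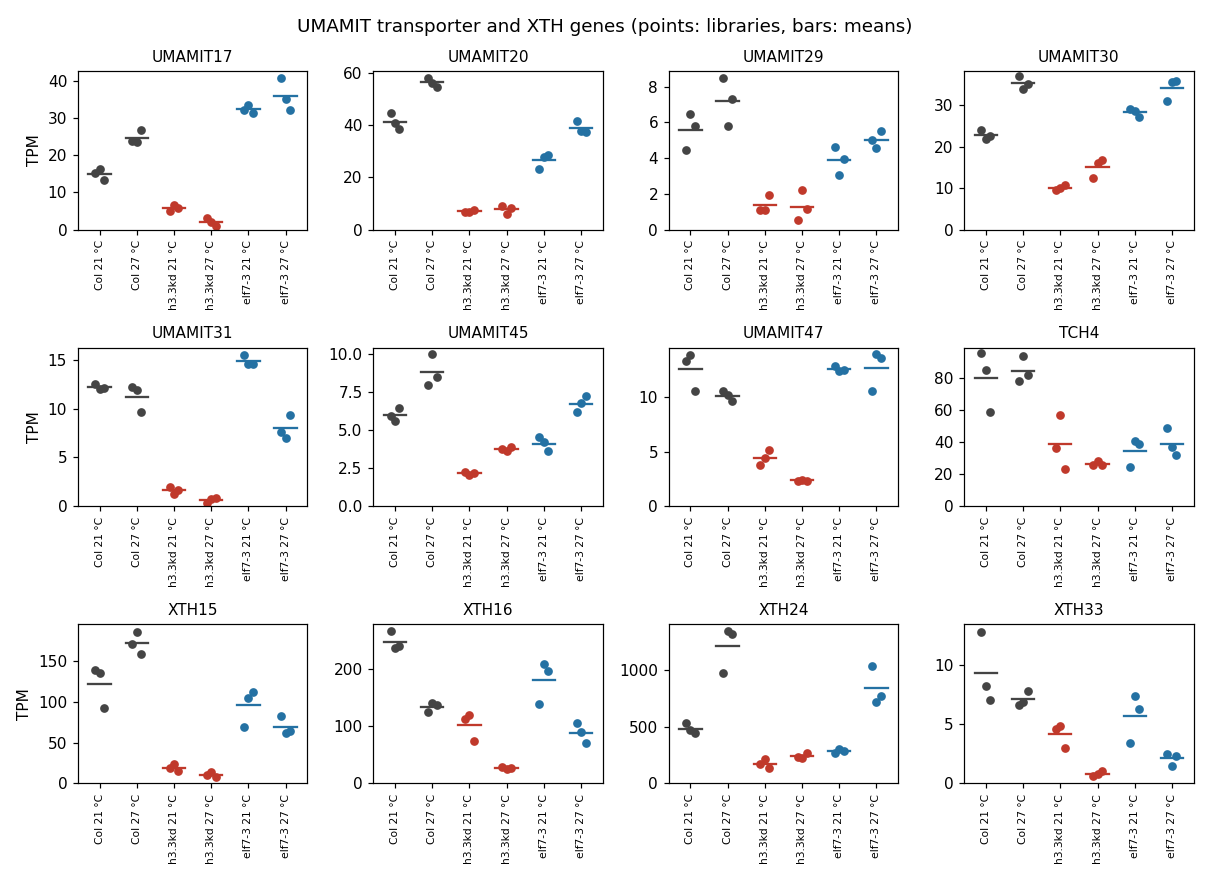
TPM on linear axes for the 7 UMAMIT and 5 XTH genes of the set in each of the 18 libraries (points) with group means (bars). In all 12 panels the red h3.3kd means are below the grey Col means, while the blue elf7-3 means lie above Col for UMAMIT17 at both temperatures and below Col for XTH24 at both.

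DELTA-TIP (chr3:5505360-5507050, plus strand), a water channel of the vacuole membrane, had the highest Col level of the set. It read 2488, 2524 and 2604 TPM in Col, 1094, 1079.7 and 962 TPM in h3.3kd and 1952, 1918 and 1888 TPM in elf7-3 at 21 °C. At 27 °C it was 3252, 3579.8 and 3526 TPM in Col, 706, 707 and 651 TPM in h3.3kd and 2888, 2854 and 2619.9 TPM in elf7-3. Col and elf7-3 were higher in the warm and h3.3kd was lower, so that the gap widened from a difference of -1.28 to -2.33. Further transporters, chosen for mention after their values were seen, were SWEET11, AAP4, OCT2 and OCT3. SWEET11, a sucrose exporter that helps load the phloem, had 289.5 ± 6.12 TPM in Col and 109 ± 10.6 TPM in h3.3kd at 21 °C, and 318 ± 15.8 and 90.3 ± 2.75 TPM at 27 °C. AAP4, an amino acid importer, differed by -1.01 at 21 °C and -1.24 at 27 °C. The organic cation transporter genes OCT2 and OCT3 differed by -1.12 and -1.09 at 21 °C and by -1.56 and -1.79 at 27 °C.

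SEN1 and AT2G33830, a dormancy- and auxin-associated gene, were among the 6 with the highest Col level, together with DELTA-TIP, ELP, XTH24 and AT1G62480. SEN1, a gene induced by darkness and senescence, had 1575, 1322 and 1118 TPM in Col, 589, 874 and 437 TPM in h3.3kd and 772, 1198 and 1259 TPM in elf7-3 at 21 °C. Its values at 27 °C were 859.7, 1285 and 1037 TPM in Col, 345, 278 and 283 TPM in h3.3kd and 1345, 901 and 1032 TPM in elf7-3. Replicates spread widely for SEN1, yet its Col and h3.3kd libraries did not overlap, and elf7-3 overlapped Col at both temperatures and h3.3kd at 21 °C. AT2G33830 differed by -1.08 at 21 °C and -1.35 at 27 °C, with means of 1514 ± 58.5 TPM in Col and 714 ± 67.01 TPM in h3.3kd at 21 °C. AT1G62480, annotated as a vacuolar calcium-binding protein, had 1118, 1006 and 1050.3 TPM in Col, 240.3, 334 and 203 TPM in h3.3kd and 592, 827 and 896 TPM in elf7-3 at 21 °C. At 27 °C AT1G62480 had 387, 388 and 383 TPM in Col, 71.98, 80.2 and 69.9 TPM in h3.3kd and 262, 213 and 240.0 TPM in elf7-3. The genotypes were apart at both temperatures, and every genotype had less in the warm. ASN1, THA1 and DIN2 were named after their values were seen. ASN1, an asparagine synthetase of dark-adapted tissue, had 494 ± 105 TPM in Col and 99.5 ± 15.8 TPM in h3.3kd at 27 °C. THA1, a threonine aldolase, had 65.3 ± 16.1 and 5.84 ± 0.436 TPM there, and the β-glucosidase gene DIN2 had 17.2 ± 2.92 and 2.56 ± 1.200 TPM.

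Defence and specialised metabolism gave 3 genes of the aliphatic glucosinolate pathway, the route to the mustard oil precursors of the cabbage family. MYB28, its main transcriptional activator, had 66.3, 67.7 and 72.1 TPM in Col, 26.1, 21.7 and 25.6 TPM in h3.3kd and 74.5, 76.2 and 77.1 TPM in elf7-3 at 21 °C. At 27 °C MYB28 had 41.5, 40.6 and 45.5 TPM in Col, 12.4, 17.8 and 15.4 TPM in h3.3kd and 41.2, 57.2 and 54.9 TPM in elf7-3. MYB28 was lower in h3.3kd alone, and elf7-3 overlapped or passed Col. CYP83A1, which oxidises the aldoximes of the pathway, had 42.1, 45.4 and 52.4 TPM in Col, 7.73, 6.83 and 12.95 TPM in h3.3kd and 5.62, 2.96 and 2.46 TPM in elf7-3 at 21 °C. In the warm CYP83A1 had 25.9, 22.9 and 29.6 TPM in Col, 0.901, 3.93 and 2.55 TPM in h3.3kd and 7.08, 20.4 and 14.3 TPM in elf7-3. Both mutants were below Col at 21 °C without overlap, elf7-3 the lower of them. MAM1, a methylthioalkylmalate synthase that lengthens the side chain, had 36.8, 41.1 and 50.7 TPM in Col, 18.3, 18.1 and 23.8 TPM in h3.3kd and 3.84, 1.31 and 1.49 TPM in elf7-3 at 21 °C. At 27 °C MAM1 had 24.6, 25.8 and 25.5 TPM in Col, 7.79, 17.6 and 9.95 TPM in h3.3kd and 8.65, 18.7 and 14.2 TPM in elf7-3. Its elf7-3 mean at 21 °C was 2.21 ± 1.41 TPM, with all libraries far under those of h3.3kd and Col. Of 15 listed pathway and myrosinase genes 14 were tested. In h3.3kd against Col 1 was called higher and 10 lower at 21 °C, and 3 higher and 6 lower at 27 °C, where 12.7% and 20.8% of all genes were called higher and lower at 21 °C and 20.2% and 31.6% at 27 °C. These counts include the 3 genes of the set, which this comparison had chosen. TGG2, a myrosinase that breaks glucosinolates down, was called lower at 21 °C, with a limma log2 difference of -2.88 ± 0.14 (SE; adjusted p = 8.87e-11), and higher at 27 °C, with 0.70 ± 0.14 (SE; adjusted p = 5.45e-04). SOT17, a sulfotransferase of the last synthetic step, was called higher by limma at 21 °C, with 0.56 ± 0.18 (SE; adjusted p = 0.0214), and at 27 °C, with 0.96 ± 0.18 (SE; adjusted p = 2.28e-04).

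In the listed lipid-transfer group around AZI1 and AT4G22490, 5 of 10 genes were tested. In h3.3kd 3 were called lower at 21 °C and 5 at 27 °C, none higher. These counts include AZI1 and AT4G22490, which this comparison had chosen. Of all genes 12.7% were called higher and 20.8% lower at 21 °C, and 20.2% and 31.6% at 27 °C. EARLI1, the neighbour of AZI1, was at 6.05 ± 3.55 TPM in Col and 0.0623 ± 0.108 TPM in h3.3kd at 21 °C. AT5G48490, another lipid-transfer gene of the set, had 22.001 ± 1.45 and 3.96 ± 2.90 TPM. Intracellular immune receptors (NLR) gave RPM1 and DAR4, the latter also known as CHS3. RPM1, which recognises effectors of Pseudomonas bacteria, had 9.47, 8.39 and 8.95 TPM in Col, 2.30, 2.02 and 1.69 TPM in h3.3kd and 7.94, 6.72 and 6.96 TPM in elf7-3 at 21 °C. At 27 °C RPM1 had 9.79, 7.83 and 9.12 TPM in Col, 1.53, 1.93 and 1.48 TPM in h3.3kd and 9.89, 10.7 and 9.18 TPM in elf7-3. It was low in h3.3kd alone at 27 °C, while elf7-3 lay just below Col at 21 °C. DAR4 had 25.96 ± 1.13 TPM in Col, 11.98 ± 1.22 in h3.3kd and 8.73 ± 1.76 in elf7-3 at 21 °C, so that elf7-3 was the lowest. Of the 17 listed receptor genes, all tested, 2 were called higher and 6 lower in h3.3kd at 21 °C. At 27 °C 1 was called higher and 9 lower. These counts include RPM1 and DAR4, which this comparison had chosen, and stand beside the same shares of all genes. RPP4, a receptor outside the set, was called lower by limma at 21 °C, with -0.95 ± 0.08 (SE; adjusted p = 1.40e-07), and at 27 °C, with -0.64 ± 0.08 (SE; adjusted p = 5.65e-06). Cysteine-rich receptor-like kinases (CRK) gave CRK18, CRK28 and CRK42 of 18 at the Col level of the rule. CRK18 differed by -1.52 at 21 °C and -2.14 at 27 °C.

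Of the jasmonate list only AOC2, an allene oxide cyclase, was in the set, with differences of -1.15 at 21 °C and -1.37 at 27 °C. Of the 13 genes tested from that list none was called higher and 8 lower at 21 °C, beside 12.7% and 20.8% of all genes. At 27 °C 1 was called higher and 6 lower, beside 20.2% and 31.6% of all genes, and the same shares of all genes apply to the h3.3kd counts of the touch, auxin and organ lists given next. VSP1, a vegetative storage protein induced by jasmonate, was called lower by limma, with -1.01 ± 0.29 (SE; adjusted p = 0.0113) at 21 °C and -2.32 ± 0.29 (SE; adjusted p = 3.12e-06) at 27 °C. The list of fast touch, wound and calcium responses gave TCH4 and DREB26, and 3 of its 16 tested genes were called higher and 5 lower at 21 °C, 3 higher and 8 lower at 27 °C. The summed level of that list at 21 °C was higher in h3.3kd, at 848 to 1008 TPM, than in Col, at 624 to 712 TPM. At 27 °C the sums were 992 to 1059 TPM in h3.3kd and 996 to 1112 TPM in Col. TCH3, a calmodulin-like protein, was called lower by limma, with -0.79 ± 0.20 (SE; adjusted p = 0.00466) at 21 °C and -1.29 ± 0.20 (SE; adjusted p = 2.83e-05) at 27 °C. In the auxin and shade growth list, XTH15 was the only gene of the set among 15 tested. That list had 2 higher and 3 lower calls at 21 °C and 2 higher and 8 lower at 27 °C. The counts of the jasmonate, touch and auxin lists include their genes of the set, which this comparison had chosen.

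Other regulators and enzymes were scattered over families. Of 25 AP2/ERF genes at the Col level of the rule 3 belonged, AT1G36060 with -1.53 at 21 °C and -3.04 at 27 °C, DREB26 with -1.32 at 21 °C and -1.60 at 27 °C and AT4G39780 with -1.07 at 21 °C and -1.75 at 27 °C. The SAUR-like auxin-responsive genes gave 3 of 20, TRAF-like genes 4 of 22 and FAD-dependent oxidases 3 of 15. GDSL-like lipases gave 3 of 33, S-adenosyl-methionine-dependent methyltransferases 4 of 93 and NAD(P)-binding Rossmann-fold proteins 4 of 87. Over whole families, the set included, limma called 21 of 59 tested SAUR-like genes higher and 10 lower in h3.3kd at 27 °C. For 111 tested Rossmann-fold genes it called 34 and 25, beside 20.2% and 31.6% of all genes. At 21 °C the calls were 8 and 7, and 23 and 28, beside 12.7% and 20.8%. The other families of this paragraph had more lower than higher calls at both temperatures, as all genes did. Of 120 tested methyltransferase genes 16 were higher and 27 lower at 21 °C, and 29 and 34 at 27 °C. For 50 GDSL-like lipases the calls were 12 and 15, then 10 and 17. For 50 AP2/ERF genes they were 1 and 20, then 6 and 16. For 32 TRAF-like genes they were 6 and 12, then 7 and 15, and for 27 oxidases 2 and 10, then 2 and 14. Genes named here after their values were seen include PSK4, a precursor of the growth peptide phytosulfokine, with -1.61 at 21 °C and -3.57 at 27 °C. HLS1, which shapes the apical hook, had -1.05 at 21 °C and -1.54 at 27 °C, and RDR6, the polymerase behind trans-acting small RNAs, had -1.06 at 21 °C and -1.05 at 27 °C. An uncharacterized or missing product name was carried by 23 of the 201 genes.

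The set was spread over the genome, with 54, 29, 42, 35 and 41 genes on chromosomes 1 to 5. Of these 28, or 13.9%, formed 14 pairs of loci adjacent in the order of the 27445 listed nuclear loci, and no run was longer. Loci that are not listed may lie between them, and the share of such pairs among all genes was not computed. The pair AT3G05727 and AT3G05730, a defensin-like gene, lay at chr3:1693548-1694140 and chr3:1695156-1696708. AT3G05730 had 208, 197 and 177 TPM in Col, 22.7, 35.8 and 19.9 TPM in h3.3kd and 195, 194 and 151 TPM in elf7-3 at 27 °C, and its difference was -1.28 at 21 °C and -2.84 at 27 °C. The extensin-family pair AT3G16660 and AT3G16670 differed in elf7-3, where AT3G16660 had 203 ± 29.2 TPM against 165 ± 17.9 TPM in Col at 27 °C and AT3G16670 had 14.2 ± 7.20 against 40.5 ± 15.1 TPM. The TRAF-like pair AT2G32870 and AT2G32880 had h3.3kd differences from Col of -2.12 at 21 °C and -3.53 at 27 °C and of -1.97 at 21 °C and -3.07 at 27 °C. Other pairs were UMAMIT20 with UMAMIT17, UMAMIT31 with UMAMIT30, UMAMIT47 with UMAMIT45, the transcription factor genes NAC3 with NAC2, the peroxidases AT5G64110 with AT5G64120, and ELP with AT1G12080. The remaining pairs were AT1G19530 with AT1G19540, AT3G09160 with AT3G09162, AT3G50560 with AT3G50570, AT4G11210 with AT4G11211, and AT5G24210 with AT5G24215.

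Gene models in the set were short and simple. The median exon length was 1489 bases against 1764 over 19921 tested nuclear genes, and the median number of exons was 3 against 5. Single-exon genes made up 23.4% of the set, or 47 genes, against 14.3%. Over the 14932 genes at the Col level of the rule, the medians were 1827 bases and 5 exons, and 11.1% had a single exon. No test was made of these differences.

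The response to warmth in elf7-3 is the comparison whose group means share no library with the rule. Its SE and p-values rest on a spread pooled over all 18 libraries, those of the rule included. With limma 57 of the 201 genes rose from 21 to 27 °C in elf7-3, or 28.4%, and 67 fell, or 33.3%. Over all tested genes 29.8% rose and 18.3% fell. The median log2 change was 0.02 over the set and 0.07 over all genes. The largest rise was that of M17, at 2.31 ± 0.31, adjusted p = 8.28e-06, followed by MAM1 at 2.23 ± 0.28, adjusted p = 4.92e-06, AT2G32870 at 2.10 ± 0.20, adjusted p = 2.13e-07 and PMAT2, a malonyltransferase of phenolic glucosides, at 1.73 ± 0.14, adjusted p = 3.60e-08 (limma log2 change ± SE). MAM1 and CYP83A1, the latter at 1.62 ± 0.34, adjusted p = 7.64e-04 with limma, thus rose in warm elf7-3 seedlings. The largest falls were those of AT2G25510 at -4.23 ± 0.29, adjusted p = 4.30e-09, AT5G18840, a sugar-type membrane transporter, at -3.37 ± 0.23, adjusted p = 4.47e-09, the protease inhibitor gene UPI at -2.93 ± 0.20, adjusted p = 4.87e-09, and AT2G19970, a CAP-family secreted protein, at -1.78 ± 0.25, adjusted p = 1.68e-05 (limma). Each of these 8 changes went the same way in all 3 libraries against the other group's 3, as their ranges did not overlap.

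Warmth responses in Col and h3.3kd rest on libraries that the rule used and are given as a description. In Col 57 of the 201 genes were called higher at 27 °C, or 28.4%, and 56 lower, or 27.9%, with limma. The corresponding shares of all genes were 32.9% and 22.1%. M17 and AT2G32870 again led those called higher, with log2 changes of 2.04 and 1.86, ahead of AT1G36060 with 1.75 and SCPL13, a serine carboxypeptidase-like protein, with 1.64. The lowest changes were those of AT3G05727 with -3.02, AT5G18840 with -2.57, UPI with -2.10 and AT1G22690 with -1.86. UPI had 143, 114 and 133 TPM at 21 °C and 24.7, 32.996 and 31.3 TPM at 27 °C in Col. Of the set, 40 genes were called higher in the warm in both Col and elf7-3, as were 23.3% of all genes, and 47 lower in both, as were 13.6% of all genes. EXLB1 was the 1 gene called higher in Col and lower in elf7-3, a pattern of 0.304% of all genes, and MAM1 the 1 called lower in Col and higher in elf7-3, a pattern of 0.324%.

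In h3.3kd 20 genes were called higher at 27 °C, or 9.95%, and 102 lower, or 50.7%, with limma. Of all genes 26.1% were higher and 19.7% lower. The median log2 change was -0.47 over the set and 0.04 over all genes. The highest changes were those of ATPMEPCRD with 1.41, SCPL13 with 1.25, AAP4 with 1.13 and PMAT2 with 1.08. ATPMEPCRD, a pectin methylesterase or inhibitor, went from 4.61, 4.12 and 4.47 TPM to 9.93, 15.3 and 15.4 TPM. The lowest were those of AT3G05727 with -5.29, MIOX2 with -4.12, AT4G22490 with -3.68 and AT5G38940, a cupin-family protein, with -3.12. AT5G38940 had 13.97, 16.3 and 16.1 TPM at 21 °C and 0.661, 1.49 and 0.623 TPM at 27 °C in h3.3kd, and 40.7, 52.1 and 42.7 TPM and 15.5, 13.9 and 11.6 TPM in Col.

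The warmth response of h3.3kd minus that of Col is made of the same Col and h3.3kd values that chose the genes, and it is described here without a test. By limma's calls 67 of the 201 genes had a lower response in h3.3kd, or 33.3%, beside 10% of all genes. A higher response was called for 2 genes, or 0.995%, beside 8.37% of all genes. The lowest values on the log2 scale were -3.05 for MIOX2, -3.03 for AT3G16670, -2.86 for AT4G22490 and -2.63 for M17. The 2 genes with a higher response were AT5G18840 with 2.05 and AT2G25510 with 1.502. AT5G18840 had 40.3, 34.5 and 31.5 TPM in Col, 2.01, 2.80 and 1.32 TPM in h3.3kd and 28.1, 43.7 and 51.7 TPM in elf7-3 at 21 °C. At 27 °C AT5G18840 had 4.52, 6.87 and 4.22 TPM in Col, 0.662, 1.03 and 1.64 TPM in h3.3kd and 2.56, 3.88 and 2.60 TPM in elf7-3. It was low in every genotype in the warm and lowest in h3.3kd. Without the h3.3kd library that was rich in organelle transcripts, 62 genes had a lower and 2 a higher response.

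The combinations of warmth calls are likewise a description, since they rest on the Col and h3.3kd libraries. Calls of higher in warm Col and lower in warm h3.3kd were made for 9 genes of the set and 0.898% of all genes, and the reverse for 0 genes of the set and 0.594% of all genes. The 9 were DELTA-TIP, XTH15, UMAMIT17, THA1, OCT3, AT1G12080, AT1G65845, AT2G26695 and AT2G32880. The log2 change of DELTA-TIP was 0.44 in Col and -0.60 in h3.3kd, and that of UMAMIT17 was 0.70 and -1.19. Calls of higher in the warm in Col and elf7-3 and not in h3.3kd were made for 23 genes and 7.00% of all genes. All 3 genotypes were called higher in the warm for 17 genes and 16.3% of all genes, and lower for 45 genes and 9.95% of all genes. Calls of lower in warm h3.3kd, and not of lower in Col or elf7-3, were made for 36 genes and 5.36% of all genes. Genes called higher in Col or elf7-3 count among these 36, the 9 named above included, so that the groups of this paragraph overlap. These combinations do not show that the genotypes differ in their response.

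**Figure D5:**
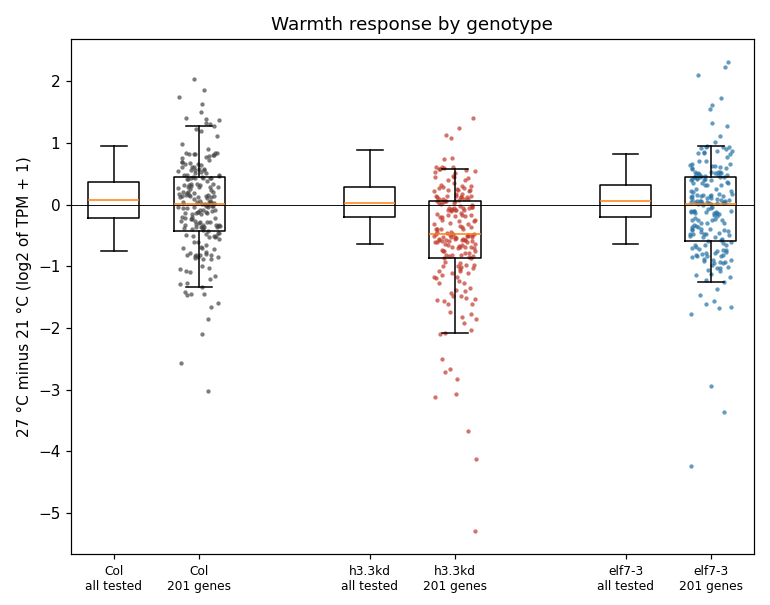
Log2 change of TPM + 1 from 21 to 27 °C by limma in Col, h3.3kd and elf7-3, as box plots for all tested genes and for the 201 genes, the latter with a point per gene; boxes span the quartiles, lines inside are medians and whiskers reach the 5 and 95 percentiles. The set's median is 0.00 in Col, -0.47 in h3.3kd and 0.02 in elf7-3.

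Levels in elf7-3 were then set beside those in Col, with the caution that the same Col libraries had chosen the genes for being high in Col. At 21 °C 20 of the 201 genes were called higher in elf7-3, or 9.95%, and 69 lower, or 34.3%, where 13.3% and 15.4% of all genes were called with limma. At 27 °C 15 were higher, or 7.46%, and 88 lower, or 43.8%, beside 16.4% and 18.5% of all genes. The median log2 difference over the set was -0.21 at 21 °C and -0.32 at 27 °C. At both temperatures 56 genes were called lower, as were 9.21% of all genes, and 9 higher, as were 6.52%. Neither temperature gave a call for 76 genes, or for 53.0% of all genes. The elf7-3 mean was above the Col mean at both temperatures for 36 genes, against 32.6% of the 14932 genes at the same Col level.

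As the Col libraries had helped to choose the genes, the p-values of elf7-3 against Col describe the set and are no independent test. The genes lowest in elf7-3 against Col at 21 °C were MAM1 at -3.84 ± 0.28, adjusted p = 7.97e-08, CYP83A1 at -3.40 ± 0.34, adjusted p = 1.71e-06, AT5G48490 at -1.96 ± 0.42, adjusted p = 0.00192, and AT3G05727 at -1.57 ± 0.17, adjusted p = 3.85e-06 (limma). At 27 °C they were GER2, a germin-like protein, at -2.37 ± 0.24, adjusted p = 1.17e-06, the subtilase SBT3.12 at -2.29 ± 0.20, adjusted p = 1.79e-07, AT5G48490 at -2.03 ± 0.42, adjusted p = 0.00107, and AT2G25510 at -1.83 ± 0.29, adjusted p = 1.15e-04 by limma. GER2 had 8.60, 11.99 and 9.16 TPM in Col, 0, 0.731 and 0.457 TPM in h3.3kd and 0.616, 1.39 and 1.36 TPM in elf7-3 at 27 °C, so that both mutants were far under Col. UVR3, a photolyase that repairs ultraviolet damage to DNA, was higher in elf7-3 at both temperatures, by 1.33 ± 0.10 (SE; adjusted p = 1.33e-07) and 1.32 ± 0.10 (SE; adjusted p = 7.63e-08) with limma. UVR3 had 36.7, 36.2 and 33.9 TPM in Col, 17.6, 15.8 and 17.9 TPM in h3.3kd and 77.4, 99.3 and 98.4 TPM in elf7-3 at 21 °C. The order was h3.3kd, Col and elf7-3 from low to high, with no overlap. Further genes higher in elf7-3 at 21 °C were AT2G25510 at 1.14 ± 0.29, adjusted p = 0.00698, UMAMIT17 at 1.07 ± 0.17, adjusted p = 2.02e-04, and AT2G19970 at 0.83 ± 0.25, adjusted p = 0.0205 by limma. The call of AT2G19970 was lost without Col replicate 1 or 3 at 21 °C, or elf7-3 replicate 2 or 3 at 21 °C, with adjusted p between 0.0544 and 0.0845 by limma. At 27 °C they were AT3G59930, a defensin-like gene, at 1.74 ± 0.26, adjusted p = 6.98e-05, EXPA16 at 1.29 ± 0.19, adjusted p = 6.48e-05, and AT5G03545, a gene of phosphate starvation, at 0.89 ± 0.20, adjusted p = 0.00235 (limma). EXPA16 had 29.2, 21.8 and 30.1 TPM in Col, 11.001, 7.81 and 16.3 TPM in h3.3kd and 61.4, 69.7 and 69.9 TPM in elf7-3 at 27 °C, where elf7-3 was above both other genotypes in every library.

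Levels in elf7-3 were set beside those in h3.3kd, whose libraries had chosen the genes, by the ratio of their summed mean TPM over both temperatures and at each temperature. The largest summed ratios were 52.4 for AZI1, 47.8 for AT2G25510, 40.4 for M17 and 27.9 for AT5G24215. At 21 °C and then at 27 °C the ratio was 44.4 and 125 for AZI1, 116 and 2.92 for AT2G25510, 9.14 and 118 for M17, and 28.5 and 27.7 for AT5G24215. The order of these genes thus depended on the temperature. The smallest summed ratios were 0.503 for MAM1, 0.611 for SBT3.12, 0.753 for DAR4 and 1.07 for AT1G54010, a GDSL-like lipase. For MAM1 the ratio was 0.1103 at 21 °C and 1.17 at 27 °C, and for AT1G54010 it was 1.37 and 0.776, so that the order of the means changed for both. For MAM1 at 27 °C the means were 11.8 ± 5.17 TPM in h3.3kd and 13.8 ± 5.01 TPM in elf7-3. Their libraries overlapped, so that no difference is shown there. For SBT3.12 it was 0.747 and 0.450, and for DAR4 0.728 and 0.777. SBT3.12 had 7.30, 5.70 and 6.78 TPM in Col, 2.37, 2.36 and 2.72 TPM in h3.3kd and 2.89, 0.914 and 1.75 TPM in elf7-3 at 21 °C. At 27 °C SBT3.12 had 8.26, 8.84 and 8.24 TPM in Col, 2.25, 1.53 and 2.48 TPM in h3.3kd and 0.757, 0.851 and 1.21 TPM in elf7-3. It was low in both mutants, and at 27 °C every elf7-3 library was under every h3.3kd library. AT1G54010 had 307 ± 37.9 TPM in Col, 118 ± 17.9 in h3.3kd and 91.9 ± 12.99 in elf7-3 at 27 °C. Large ratios rest on small h3.3kd values, and 13 genes of the set had fewer than 10 approximate reads on average in h3.3kd at 21 °C and 28 at 27 °C, against 1 or 2 in each group of Col and elf7-3.

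Marker lists of organs and stages were read beside these values, since whole seedlings may hold organs in different shares. The summed level of the 21 listed root markers, of which 18 were tested, was 247 to 252 TPM in Col and 243 to 266 TPM in h3.3kd at 21 °C, and 468 to 540.1 and 308 to 381 TPM at 27 °C. In h3.3kd 4 root markers were called higher and 3 lower at 21 °C, and 1 higher and 11 lower at 27 °C. In elf7-3 11 were higher and none lower at 21 °C, beside 13.3% and 15.4% of all genes, and 4 higher and 5 lower at 27 °C, beside 16.4% and 18.5%. All 8 tested vascular and xylem markers were called lower in h3.3kd at 27 °C, where their list summed to 338 to 441 TPM against 585 to 668 in Col, and at 21 °C 2 were higher and 2 lower. The 9 stomatal lineage markers had no higher and 4 lower calls at 21 °C and 1 higher and 5 lower at 27 °C, with sums of 63.8 to 66.1 TPM in h3.3kd and 94.8 to 106 TPM in Col at 27 °C.

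The 14 leaf photosynthesis markers summed to 78119 to 88737 TPM in h3.3kd and 64897 to 73522 TPM in Col at 21 °C, and to 71363 to 77829 and 59139 to 62582 TPM at 27 °C. In h3.3kd 7 of them were called higher and 1 lower at 21 °C, and 6 higher and 3 lower at 27 °C. Of 9 seed and embryo markers 1 was higher and 6 lower at 21 °C, and 2 higher and 1 lower at 27 °C. Of 7 suberin markers 2 were higher and none lower at 21 °C, and 1 of each at 27 °C. Only 2 of 6 floral organ markers were tested, and 1 was lower at 21 °C and 2 at 27 °C. The part of organ shares in the values of the set was not tested.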

How the data were processed

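Total RNA of 18 seedling libraries had been sequenced after preparation with a NEBNext Ultra kit, per the labels' protocols. The authors' deposited table gives a TPM value per gene and library, and each column sums to 1e+06. Named in the submitters' processing notes are fastp 0.20.1, HISAT2 2.1.10, HTSeq 0.11.2 and DESeq2 1.26.0, with no roles, and the build TAIR10. How TPM, gene lengths and strandedness were handled is not given in the sources used here. All columns matched 1 library each, and 0 were left over. TPM is relative, so that a change in abundant transcripts shifts all others, and log2 of TPM + 1 shrinks differences of low genes.

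The 20048 genes that reached 1 TPM in 3 or more libraries were fitted as log2(TPM + 1) with limma 3.58.1 in R 4.3.3, with a mean-dependent prior, 1 mean per group and 12 residual degrees of freedom. Calls were two-sided at a Benjamini-Hochberg adjusted p under 0.05 over all genes. The alternatives changed the pseudocount, the filter, the scaling, the organelle genes, the terms of the rule and the libraries used, or added a replicate block. Depth was estimated from low values, of which 71.5% of 3381 genes were whole within 0.05 reads at 1 length, with exon lengths of TAIR10.1, so that reads are approximate and no counting interval was computed. Positions, product names, exon lengths and upstream bases are from the RefSeq annotation TAIR10.1. Product families were grouped after the genes were seen. Python 3.11.15, pandas 2.3.3, numpy 2.4.6 and matplotlib 3.10.9 made tables and plots.

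The set and the 24 gene lists were chosen with earlier results of these data known. Of 305 list entries 13 were dropped, as the annotation held no such symbol at the locus, among them the whole list of H3.1 genes. 11 genes of the set are in a list. Named were the 12 largest mean differences, the 6 highest Col levels, the genes beside the threshold, up to 4 called rises and falls per comparison, family and list members, neighbours, the targeted genes and the extremes of elf7-3 against h3.3kd. Others are said to be chosen after seeing values. Lists not described in the report had these calls in h3.3kd, higher and lower, at 21 °C and then at 27 °C. The shares of all genes were 12.7% and 20.8%, then 20.2% and 31.6%. Salicylic acid immunity had 0 and 7, then 1 and 6 of 17. Pattern-triggered immunity had 0 and 3, then 0 and 4 of 11. Cold and abscisic acid had 5 and 1, then 4 and 1 of 11. Flavonoids had 1 and 2, then 5 and 1 of 9. Flowering had 1 and 2, then 2 and 2 of 9. H3 chaperones had 2 and 0, then 4 and 1 of 10. H2A.Z and SWR1 had 1 and 1, then 2 and 1 of 9. DNA methylation and silencing had 0 and 6, then 1 and 5 of 10. Iron had 3 and 1, then 1 and 5 of 9. Heat shock had 1 and 2, then 3 and 1 of 8.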

Additional observations from a re-analysis of the deposited data

Results flagged for a closer look

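By limma's calls the warmth response was lower in h3.3kd than in Col for 67 genes of the set and higher for 2. The genes had been chosen on the same Col and h3.3kd values, so that these calls describe the set and are no test of it. On the log2 scale the named differences were 2.05 for AT5G18840, 1.502 for AT2G25510, -3.05 for MIOX2, -3.03 for AT3G16670, -2.86 for AT4G22490 and -2.63 for M17. MIOX2 had 83.2, 131 and 58.6 TPM in h3.3kd at 21 °C and 2.56, 4.73 and 5.12 TPM at 27 °C, a change of -4.12, while in Col the change was -1.08. M17 changed by 2.04 in Col and by -0.59 in h3.3kd.

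Organelle genes, which no comparison used on their own, took 3.66% of TPM in h3.3kd replicate 1 at 27 °C. With these genes removed and the columns rescaled, the set counted 201 genes, 200 of them shared.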

How the results depend on the processing

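The set numbered 70 genes with a log2 difference of at most -1.5 in place of -1. It numbered 235 with a pseudocount of 0.1, 165 with median-of-ratios scaling (all in the set), 285 with a Col mean of at least 1 TPM, 153 with 10 TPM, 203 with group medians (182 shared) and 187 to 208 without each Col or h3.3kd library in turn, and 145 of the 201 genes met the rule in all 12 of these recounts. With a pseudocount of 0.1 only 1 gene, AT5G18840, was called for a higher warmth response in h3.3kd than in Col, in place of 2. Counts of calls otherwise stayed within 1.5 times under every alternative that was run, and none of the named changes reversed. Of the named values under their alternatives, 627 held and 7 lost their call: AT2G25510 in that response, AT2G25510 in elf7-3 against Col at 21 °C with the pseudocount of 0.1 (adjusted p = 0.0801, limma), and AT2G19970 there, with that pseudocount (adjusted p = 0.244, limma) and without 4 single libraries. Scaling moved the median of all genes by at most 0.09 on the log2 scale. Deviations of same-numbered libraries from their group means were weakly correlated (45 correlations from -0.15 to 0.17, 4 of them over 0.1). Libraries of different numbers were not compared, so that these values cannot decide whether the numbers pair libraries. With the replicate block, 55 genes rose and 68 fell in warm elf7-3, and 105 were lower and 20 higher in warm h3.3kd. With that block, 66 genes had a lower and 2 a higher warmth response in h3.3kd than in Col. Depth limits the set most in h3.3kd at 27 °C, where the median gene had 47.8 approximate reads.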
